A study of Mus musculus with 25 samples.

Results

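The lungs of mice given 100 µg of house dust mite extract in a 12-week model were compared with the lungs of mice given the same dose in a 2-week model, 5 mice against 5. These 10 libraries, taken by their dose and time labels, are 10 of the 25 in the series. House dust mite extract mixes mite allergens with microbial products and is given into the nose to provoke allergic airway inflammation. All mice were female and wild type, with the strain written C57BL/6J in the sample labels and C57BL/6cmdb in the design text. The study's title names tissue remodelling in acute and chronic allergic airway inflammation, and this comparison asks how the chronic lung differed from the acute one at one dose. The labels were taken as given. Libraries labelled saline at 12 weeks also carried markers of allergic inflammation, described below. Whether the 12-week labels of the 100 µg mice are affected was not tested. The sources used here did not give age, the number of doses, the hour of collection or the order of library preparation. These cannot be told apart from the length of the model.

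Inhaled allergen that reaches the airway lining releases alarmins such as interleukin 33, which act on innate lymphoid cells and T helper 2 cells. These cells make interleukins 4 and 13, which drive mucus secretion in airway epithelium, an alternative activation programme in macrophages, eosinophil-attracting chemokines and the switch of B cells to IgE. Repeated exposure is known to add matrix deposition and lymphoid aggregates around airways.

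Each library counted RNA of a whole piece of lung, so fewer cells of a type and less RNA per cell cannot be told apart. Totals were 28.9 to 35.7 M counts (1 M being 1000000) at 2 weeks and 32.7 to 40.7 M at 12 weeks. Levels are CPM, counts per 1000000 after scaling. Lung markers were high in every library: the surfactant gene Sftpa1 stood at 2420 to 3324 CPM at 2 weeks and 3763 to 5168 CPM at 12 weeks. On the first principal component of the 10 libraries, which held 62.6% of the variance, the 2-week mice lay between -46.2 and -21.6. The 12-week mice lay at 62.2, 13.6, 22.4, 61.7 and 28.1 for replicates 1 to 5, so replicates 1 and 4 stood apart from the other 3 of their group. For many lists the counts are given with and without those 2 mice. Summed heart muscle genes were 470.5 to 1472 CPM at 2 weeks and 70.02 to 690 CPM at 12 weeks. They are a possible sign of heart tissue taken with the lung, and their source was not tested. Fat cell genes were 11.8 to 141 CPM at 2 weeks and 3.39 to 33.1 CPM at 12 weeks. Mitochondrial genes held 3.27 to 6.64% of counts at 2 weeks and 2.5 to 4.21% at 12 weeks.

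Of 19654 genes tested, 7568 (38.5%) were called at an adjusted p under 0.05: 4342 (22.1%) were higher and 3226 (16.4%) lower at 12 weeks. The rises were the larger changes: 1254 called genes were at least 2-fold higher and 372 at least 2-fold lower, while the median log2 fold change over all genes was 0.02. In 2835 genes (14.4%) every 12-week mouse lay above every 2-week mouse, and in 1808 (9.20%) every one lay below. Without 12-week replicates 1 and 4 the count of called genes was 4993 (2795 higher, 2198 lower). Of the 7568 calls with all mice, 4657 (61.5%) were kept in the same direction. Calls over all genes fell too, so a lower list count without these mice does not by itself show that a list rests on them. With upper-quartile scaling in place of TMM the split was 3628 higher and 4271 lower. Adjusted p-values come from the quasi-likelihood F-test of edgeR after Benjamini-Hochberg correction over all 19654 genes. They weigh each change against the spread between mice within groups, estimated over all 25 libraries of the series. A log2 fold change is given with a standard error worked back from the test, as its size over the square root of the F statistic.

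**Figure D1:**
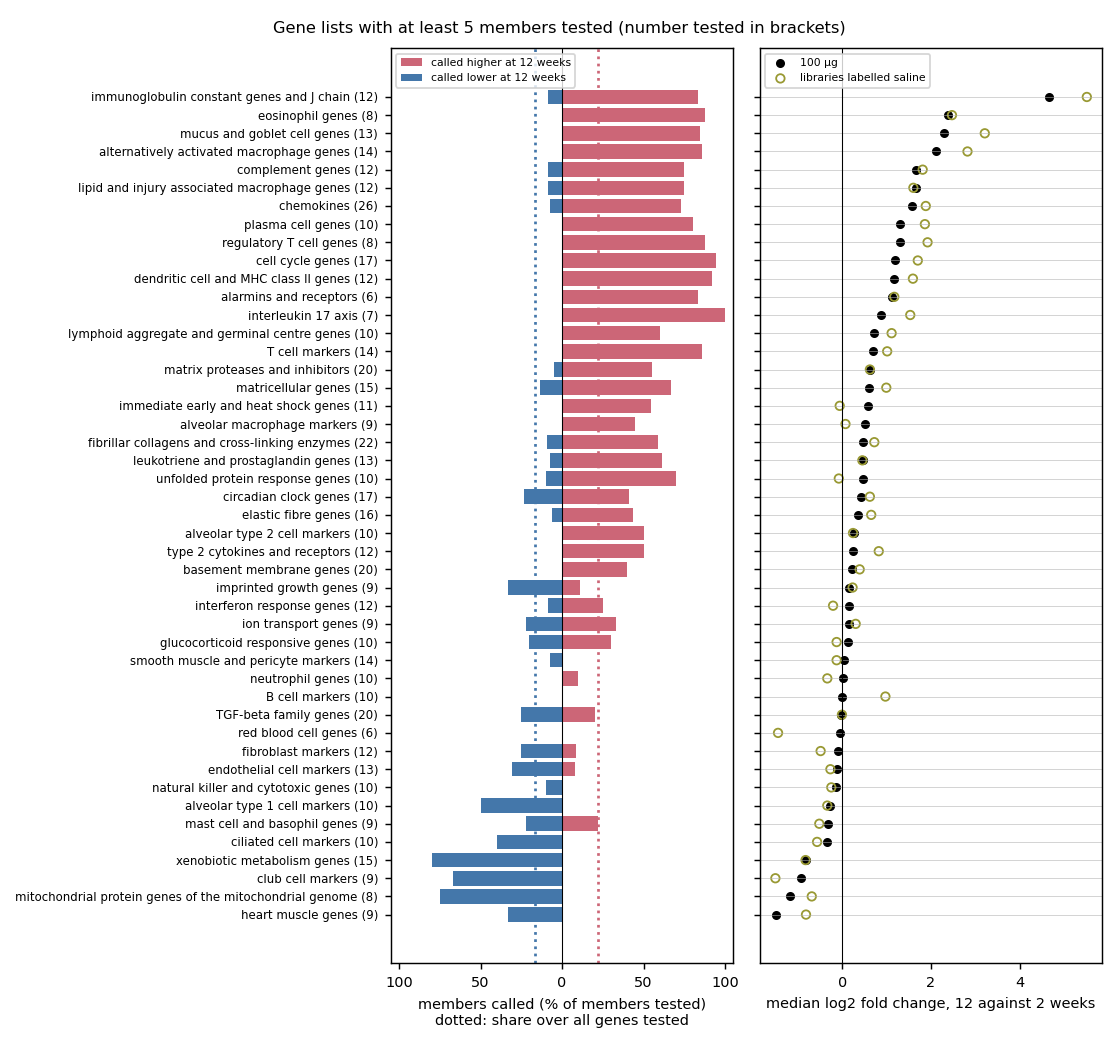
The left panel plots, for each gene list with at least 5 members tested (number in brackets), the percent of members called higher (right of 0) or lower (left of 0) at 12 weeks, with dotted lines at the 22.1% and 16.4% of all tested genes. The right panel plots the median log2 fold change of each list at 100 µg (filled) and in libraries labelled saline (open); immunoglobulin, eosinophil, mucus and alternatively activated macrophage genes have the highest medians at 100 µg, and heart muscle, mitochondrial and club cell genes the lowest.

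Most genes of alternatively activated macrophages rose. In this list 12 of 14 tested members were called higher and 0 lower, with a median log2 fold change of 2.11. Retnla (ENSMUSG00000061100, chromosome 16, 48842551 to 48844461, GRCm38), which encodes the secreted protein resistin-like alpha, stood at 31.1, 40.8, 30.4, 42.5 and 68.3 CPM in replicates 1 to 5 at 2 weeks and at 605, 750.3, 484, 837 and 1355 CPM at 12 weeks. The groups did not overlap, and the 12-week mice lay within 3-fold of each other (log2 fold change 4.24 ± 0.31, adjusted p = 2.21e-09). Chil3 (ENSMUSG00000040809, chromosome 3, 106147554 to 106167564), a chitinase-like protein of macrophages also called Ym1, stood at 372, 292, 238, 96.2 and 267 CPM at 2 weeks and 8794, 1414, 2192, 6551 and 4825 CPM at 12 weeks (log2 fold change 4.23 ± 0.40, adjusted p = 9.17e-08). Here 12-week replicates 1 and 4 were the highest and replicate 2 the lowest, still above every 2-week mouse. Its close relative Chil4 was near 0 at 2 weeks, at 0, 0, 0.0333, 0.181 and 1.9 CPM, and stood at 138, 66.99, 121, 44.05 and 57.4 CPM at 12 weeks (log2 fold change 7.73 ± 0.68, adjusted p = 2.82e-08). Because Chil3 and Chil4 are near-identical, reads may be shared between them. Arg1, which encodes arginase 1, an enzyme that diverts arginine from nitric oxide synthesis, stood at 2.68, 2.06, 2.09, 1.81 and 3.15 CPM and 49.8, 8.94, 4.34, 77.1 and 12.3 CPM. Its groups did not overlap but its 12-week mice differed widely (log2 fold change 3.69 ± 0.65, adjusted p = 0.000123). Without 12-week replicate 4 the log2 fold change was 2.96. Without 2-week replicate 5, the one 2-week mouse with a Chil4 level above 1 CPM, that gene's log2 fold change was 10.59. The lectin Mgl2 ranged 19.8 to 36.7 CPM at 2 weeks and 57.02 to 119 CPM at 12 weeks (log2 fold change 1.60 ± 0.18, adjusted p = 7.19e-07). For the list without replicates 1 and 4 the counts were 10 higher and 0 lower, with a median of 1.48.

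Interleukins 4 and 13 act through the transcription factor STAT6, whose known binding motif is TTC and GAA with any 4 bases between them. The motif reads the same on both strands. The promoter windows that RefSeq gives for GRCm38.p6 (250 bases before to 50 after a start) were searched for it, to show which of the risen type 2 genes carry it. Across 5 lists (type 2 cytokines, alarmins, alternatively activated macrophages, chemokines and mucus) 52 members were called higher, and 37 of them had a window. The motif was in 8 of the 41 windows of these 37 genes (19.5%), belonging to 7 genes. It was in 6.95% of all 32851 windows, in 5.35% of the windows of all genes called higher and in 5.85% of those of all genes called lower. So the windows of all risen genes held it about as often as those of fallen genes, and no test was made of the share in the lists. Of the 7 genes, 5 whose values are described here are shown, in lower case with the motif in capitals. Their windows are chr11:53618616-53618915 (minus strand) for Il4, chr19:29924863-29925162 (plus) for Il33, chr16:48842359-48842658 (plus) for Retnla and chr8:94810203-94810502 (plus) for Ccl17, and the motif begins 167, 36, 145 and 154 bases before the start in that order. The window of Il5ra is chr6:106748988-106749287 (minus), where the motif begins 28 bases into the gene. A match is a run of letters and does not show that the factor was bound in these lungs.
Il4: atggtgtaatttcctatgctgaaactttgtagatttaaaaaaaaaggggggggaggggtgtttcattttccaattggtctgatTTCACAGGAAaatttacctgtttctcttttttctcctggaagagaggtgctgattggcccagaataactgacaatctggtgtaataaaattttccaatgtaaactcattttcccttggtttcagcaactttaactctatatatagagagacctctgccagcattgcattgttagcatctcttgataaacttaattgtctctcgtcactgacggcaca
Il33: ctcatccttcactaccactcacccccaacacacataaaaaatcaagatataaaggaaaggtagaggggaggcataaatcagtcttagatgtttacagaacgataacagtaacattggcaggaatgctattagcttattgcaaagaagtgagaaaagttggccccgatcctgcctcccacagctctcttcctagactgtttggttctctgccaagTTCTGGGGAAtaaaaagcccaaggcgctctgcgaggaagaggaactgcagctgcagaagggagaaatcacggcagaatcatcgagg
Retnla: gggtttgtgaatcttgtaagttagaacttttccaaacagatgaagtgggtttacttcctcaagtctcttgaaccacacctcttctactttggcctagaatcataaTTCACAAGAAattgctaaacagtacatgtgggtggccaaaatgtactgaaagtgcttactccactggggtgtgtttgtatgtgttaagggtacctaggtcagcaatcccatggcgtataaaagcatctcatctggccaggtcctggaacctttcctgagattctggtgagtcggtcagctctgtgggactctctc
Ccl17: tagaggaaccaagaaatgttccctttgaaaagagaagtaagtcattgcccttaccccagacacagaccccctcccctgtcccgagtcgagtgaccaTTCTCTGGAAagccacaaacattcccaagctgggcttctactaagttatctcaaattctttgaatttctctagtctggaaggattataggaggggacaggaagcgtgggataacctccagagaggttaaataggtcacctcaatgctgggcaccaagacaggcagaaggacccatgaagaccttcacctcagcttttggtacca
Il5ra: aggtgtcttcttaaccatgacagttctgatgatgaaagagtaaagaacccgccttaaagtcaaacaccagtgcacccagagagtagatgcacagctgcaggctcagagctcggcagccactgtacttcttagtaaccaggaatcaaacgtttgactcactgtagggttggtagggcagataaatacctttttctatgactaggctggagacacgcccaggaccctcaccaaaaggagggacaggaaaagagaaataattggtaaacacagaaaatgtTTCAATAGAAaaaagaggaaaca

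The signals upstream of these genes were low in level and rose in part. Among type 2 cytokines and their receptors 6 of 12 tested members were called higher and 0 lower, with a median log2 fold change of 0.24. Il4, which encodes the cytokine that drives the switch to IgE, stood at 0.118, 0.238, 0.2, 0.0603 and 0.0984 CPM at 2 weeks and 1.38, 0.353, 0.757, 1.24 and 0.606 CPM at 12 weeks, with no overlap (log2 fold change 2.55 ± 0.58, adjusted p = 0.0014). Il13, which encodes the main driver of airway mucus, stood at 0.0294, 0, 0, 0 and 0.131 CPM and 0.532, 0.33, 0.195, 0.968 and 0.633 CPM, so that 3 of the 2-week mice had no count at all (log2 fold change 3.97 ± 0.88, adjusted p = 0.00117). Without 2-week replicate 5 its log2 fold change was 5.60. Il5, which encodes the eosinophil growth factor, overlapped, with 0.0997 to 0.557 CPM at 2 weeks and 0.122 to 0.626 CPM at 12 weeks (log2 fold change 0.22 ± 0.49, adjusted p = 0.753). Its receptor chain Il5ra rose, from 2.29 to 4.52 CPM to 4.02 to 9.92 CPM (log2 fold change 1.10 ± 0.25, adjusted p = 0.00133). Without 12-week replicates 1 and 4, 3 of the 12 list members were called higher, and the median was 0.13.

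Alarmins and their receptors rose more broadly. In this list 5 of 6 tested members were called higher and 0 lower, with a median log2 fold change of 1.11, and without replicates 1 and 4 the counts were 4 higher and 0 lower, with a median of 1.04. Il33, the alarmin itself, stood at 101, 81.8, 104, 90.2 and 149 CPM at 2 weeks and 227, 172, 238, 285 and 232 CPM at 12 weeks. The groups did not overlap, and replicate 2 was the lowest 12-week mouse (log2 fold change 1.13 ± 0.16, adjusted p = 8.05e-06). The interleukin 33 receptor gene Il1rl1 rose from 6.03 to 9.83 CPM to 12.1 to 25.4 CPM (log2 fold change 1.38 ± 0.21, adjusted p = 2.27e-05). Crlf2, which encodes the receptor for thymic stromal lymphopoietin, ranged 5.55 to 13.5 CPM and 19.9 to 30.4 CPM (log2 fold change 1.63 ± 0.25, adjusted p = 3.45e-05). Il17rb, a receptor chain for interleukin 25, ranged 0.885 to 1.48 CPM and 2.15 to 2.83 CPM (log2 fold change 1.10 ± 0.24, adjusted p = 0.00102).

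Most mucus and goblet cell genes rose, with and without replicates 1 and 4. In the list 11 of 13 tested members were called higher and 0 lower, with a median log2 fold change of 2.30, and without those 2 mice the counts were 10 higher and 0 lower, with a median of 2.46. Clca1 (ENSMUSG00000028255, chromosome 3, 145003817 to 145032776), a protein secreted by goblet cells, stood at 0.353, 2.3, 1.73, 6.4 and 123 CPM at 2 weeks and 1339, 2013, 1366, 742 and 1707 CPM at 12 weeks. At 2 weeks replicate 5 stood far above the other mice, yet every 12-week mouse was higher still (log2 fold change 5.74 ± 1.26, adjusted p = 0.00108). Muc5ac (ENSMUSG00000037974, chromosome 7, 141788972 to 141819231), the gel-forming mucin of goblet cells, stood at 0.529, 2.15, 1.26, 3.68 and 4.36 CPM and 41.8, 112, 38.1, 37.9 and 42.7 CPM, with replicate 2 the highest of its group (log2 fold change 4.52 ± 0.47, adjusted p = 2.58e-07). Slc26a4, which encodes the anion exchanger pendrin, stood at 4.97, 3.07, 2.29, 2.93 and 4.92 CPM and 109, 59.5, 46.5, 161 and 94.2 CPM, far apart in every mouse (log2 fold change 4.69 ± 0.34, adjusted p = 2.21e-09). Fcgbp, a mucus protein that binds to mucins, ranged 1.59 to 13.2 CPM and 55.6 to 133 CPM (log2 fold change 4.19 ± 0.42, adjusted p = 1.91e-07). Muc5b, the mucin that healthy airways also secrete, had overlapping groups at 15.9 to 267 CPM and 248 to 385 CPM (log2 fold change 1.25 ± 0.43, adjusted p = 0.0227). The call for Muc5b was lost without 12-week replicate 2 (adjusted p = 0.0515), without 2-week replicate 2 (0.0555) and without 2-week replicate 3 (0.0669). It was also lost without 12-week replicates 1 and 4 together (adjusted p = 0.0573) and in the fit of the compared groups only (0.0841). Agr2, which encodes a disulfide isomerase needed to fold mucins, overlapped too, at 0.147 to 3.77 CPM and 3.44 to 8.07 CPM (log2 fold change 2.08 ± 0.56, adjusted p = 0.00548). Leaving out 2-week replicate 5 raised the log2 fold change to 9.05 for Clca1, 5.06 for Fcgbp and 3.20 for Agr2. Itln1, which encodes the goblet cell lectin intelectin 1, had 3 counts in all 5 libraries at 2 weeks and 735 at 12 weeks, a ratio of 215 (95% interval 73.1 to 1043, counting error only).

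**Figure D2:**
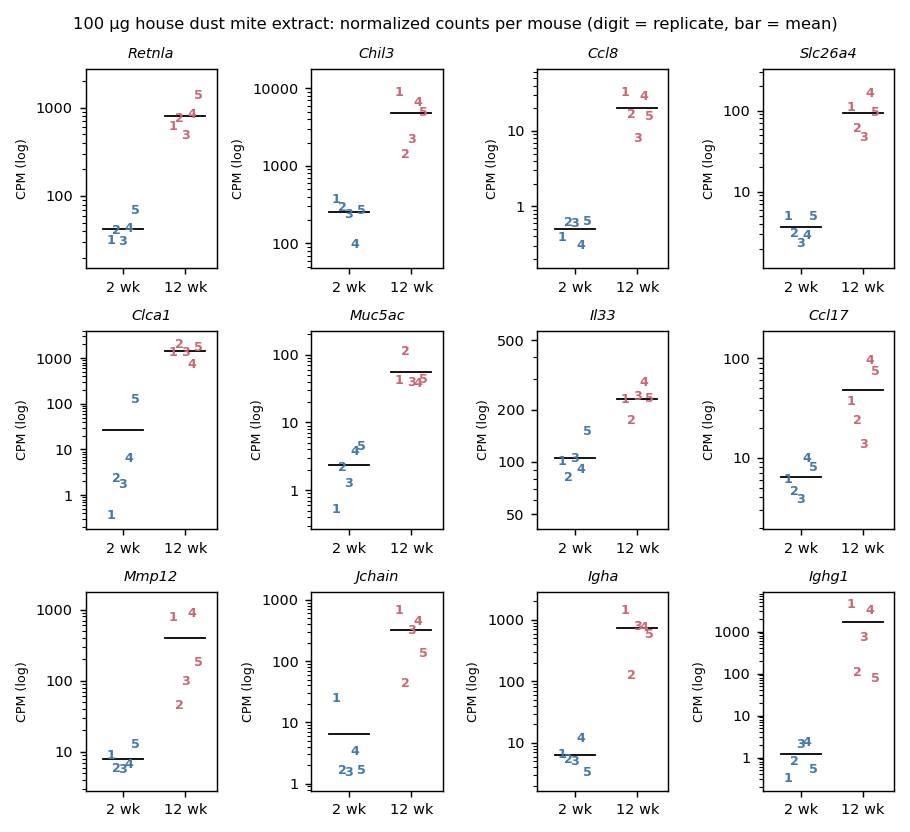
Normalized counts (CPM, log axis) of 12 genes are plotted for each of the 5 mice at 2 weeks and 5 at 12 weeks, each digit being the replicate number and each bar the group mean. No gene shown has overlapping groups; at 12 weeks replicates 1 and 4 are the highest for Mmp12 and Ighg1, while Clca1 and Muc5ac are highest in replicate 2.

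Macrophage genes linked to lipid handling and injury rose, with larger rises in replicates 1 and 4. In this list 9 of 12 tested members were called higher and 1 lower, with a median log2 fold change of 1.66, and without those mice the counts were 9 higher and 1 lower, with a median of 1.04. Mmp12 (ENSMUSG00000049723, chromosome 9, 7344381 to 7369499), the macrophage elastase, stood at 8.97, 5.85, 5.65, 6.61 and 12.5 CPM at 2 weeks and 772, 44.2, 98.6, 886 and 181 CPM at 12 weeks, so the lowest 12-week mouse was above the highest 2-week mouse and the 12-week mice spread more than 10-fold (log2 fold change 5.65 ± 0.65, adjusted p = 9.49e-07). Trem2, a lipid-sensing receptor, ranged 1.54 to 3.36 CPM and 8.66 to 63.1 CPM (log2 fold change 3.60 ± 0.42, adjusted p = 1.34e-06). The cathepsin gene Ctsk ranged 12.5 to 22.3 CPM and 42.3 to 188 CPM (log2 fold change 2.56 ± 0.32, adjusted p = 2.42e-06). Fabp5, a fatty acid carrier, ranged 54.5 to 82.8 CPM and 151 to 268 CPM (log2 fold change 1.64 ± 0.17, adjusted p = 3.52e-07). Spp1, which encodes osteopontin, overlapped between groups at 52.2 to 65.5 CPM and 32.8 to 168 CPM (log2 fold change 0.60 ± 0.41, adjusted p = 0.254). Among alveolar macrophage markers 4 of 9 tested members were called higher and 0 lower, with a median log2 fold change of 0.52, and without replicates 1 and 4 the counts were 2 higher and 0 lower, with a median of 0.26. The integrin gene Itgax, which dendritic cells also express, ranged 41.9 to 71.2 CPM and 133 to 576 CPM (log2 fold change 2.60 ± 0.30, adjusted p = 9.31e-07). Siglecf, a surface lectin of alveolar macrophages and eosinophils, overlapped at 7.12 to 19.7 CPM and 19.2 to 55.9 CPM (log2 fold change 1.09 ± 0.24, adjusted p = 0.00117). Without replicates 1 and 4 its adjusted p was 0.0586.

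Most chemokine genes rose. In the list 19 of 26 tested members were called higher and 2 lower, with a median log2 fold change of 1.56, and without replicates 1 and 4 the counts were 15 higher and 2 lower, with a median of 1.08. Ccl8 (ENSMUSG00000009185, chromosome 11, 82115185 to 82116799), which in mice attracts T helper 2 cells through the receptor CCR8, was under 1 CPM in every 2-week mouse (0.382, 0.609, 0.598, 0.302 and 0.623 CPM) and stood at 32.8, 16.4, 7.98, 28.2 and 15.4 CPM at 12 weeks (log2 fold change 5.32 ± 0.43, adjusted p = 9.41e-09). Ccl6 ranged 70.8 to 100.4 CPM and 246 to 1400 CPM (log2 fold change 3.04 ± 0.29, adjusted p = 9.17e-08). Ccl17, a ligand of CCR4 on T helper 2 cells made mainly by dendritic cells, stood at 6.06, 4.55, 3.82, 9.93 and 8 CPM and 36.3, 23.8, 13.7, 94.1 and 73.4 CPM (log2 fold change 2.90 ± 0.39, adjusted p = 5.88e-06). Ccl11, which encodes the eosinophil attractant eotaxin 1, stood at 3.91, 4.34, 4.89, 5.55 and 7.7 CPM and 19.8, 21.1, 14.7, 32.01 and 33.5 CPM (log2 fold change 2.20 ± 0.25, adjusted p = 9.49e-07). None of these 4 overlapped between groups. Ccl24, which encodes eotaxin 2, did overlap: replicate 3 at 12 weeks, at 0.146 CPM, lay below every 2-week mouse (log2 fold change 2.08 ± 0.67, adjusted p = 0.0171). Without 12-week replicate 4 its log2 fold change was 1.42 (adjusted p = 0.102). By limma-voom the adjusted p with all mice was 0.46.

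Most eosinophil genes rose, and fewer were called once replicates 1 and 4 were left out, as was so over all genes. In the list 7 of 8 tested members were called higher and 0 lower, with a median log2 fold change of 2.39, and without those mice the counts were 4 higher and 0 lower, with a median of 1.82. Rnase2a (ENSMUSG00000047222, chromosome 14, 51255262 to 51256112), of the eosinophil-associated ribonuclease family, was under 0.1 CPM in every 2-week mouse (0.0294, 0, 0, 0.0905 and 0.0328 CPM) and stood at 71.6, 18.8, 7.15, 123 and 61.3 CPM at 12 weeks (log2 fold change 10.70 ± 1.01, adjusted p = 8e-08). Without 2-week replicate 4, the highest of its group, the log2 fold change was 11.56. Ccr3, the eotaxin receptor, ranged 0.905 to 5.45 CPM and 8.94 to 39.7 CPM (log2 fold change 2.83 ± 0.39, adjusted p = 8.37e-06). Cebpe, a transcription factor of granulocyte maturation, ranged 0.0588 to 0.499 CPM and 1.11 to 11.7 CPM (log2 fold change 4.57 ± 0.56, adjusted p = 2.36e-06). The granule gene Prg2 overlapped between groups, at 0.0656 to 1.29 CPM and 0.894 to 11.1 CPM (log2 fold change 3.19 ± 0.81, adjusted p = 0.00336). Its adjusted p was 0.0812 without replicates 1 and 4. Epx, which encodes eosinophil peroxidase, was near 0 in both groups, at 0.0328 to 0.299 CPM and 0.122 to 0.523 CPM, and was not called (log2 fold change 1.11 ± 0.77, adjusted p = 0.265). Neutrophil genes gave few calls: 1 of 10 tested members were called higher and 0 lower, with a median log2 fold change of 0.02. The 1 called was Retnlg, at 4.83 to 11.8 CPM and 16.3 to 73.4 CPM (log2 fold change 2.24 ± 0.34, adjusted p = 2.57e-05). S100a8, a calprotectin subunit of neutrophils, ranged 14.9 to 33.9 CPM and 8.74 to 24.9 CPM (log2 fold change -0.65 ± 0.33, adjusted p = 0.118). It was called lower only without 12-week replicate 5 among the single mice left out (-0.95, adjusted p = 0.0299).

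Mast cell genes were called in both directions at shares close to the 22.1% higher and 16.4% lower of all tested genes. In the list 2 of 9 tested members were called higher and 2 lower, with a median log2 fold change of -0.32. The protease genes Mcpt1 and Mcpt2, which mark mucosal mast cells, held 2 and 0 counts over the 2-week group and 163 and 150 counts over the 12-week group. At 12 weeks Mcpt1 stood at 0.782, 0, 1.51, 1.91 and 0.138 CPM, so replicates 1, 3 and 4 held most of its counts and replicate 2 none. Under the stricter filter on low counts, and in the fit of the compared groups only, 0 members of the list were called higher. In those fits Mcpt1 and Mcpt2 did not pass the filter and were not tested. Both were called in each of the 19 alternatives that tested them. Gata2, a transcription factor that mast cells share with endothelium, ranged 79.99 to 103 CPM and 47.7 to 62.6 CPM (log2 fold change -0.70 ± 0.13, adjusted p = 0.000161).

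The list of antibody genes had the highest median of any list. Among immunoglobulin constant genes and the J chain 10 of 12 tested members were called higher and 1 lower, with a median log2 fold change of 4.65, and without replicates 1 and 4 the counts were 10 higher and 1 lower, with a median of 3.73. Of 152 tested immunoglobulin variable segments, 144 were called higher and 0 lower, with a median log2 fold change of 3.96. Ighg1 (ENSMUSG00000076614, chromosome 12, 113325240 to 113330523), the constant gene of IgG1, stood at 0.324, 0.821, 2.06, 2.29 and 0.524 CPM at 2 weeks and 4381, 103, 735, 3235 and 77.3 CPM at 12 weeks. The groups did not overlap, but the 12-week mice fell into high levels in replicates 1, 3 and 4 and lower ones in 2 and 5 (log2 fold change 10.48 ± 1.11, adjusted p = 3.28e-07). Ighe, the constant gene of IgE, had 1 count over the 5 mice at 2 weeks and 3749 at 12 weeks, at 55.7, 1.34, 8.57, 41.2 and 0.716 CPM per mouse, a ratio of 3284 (95% interval 589 to 129700, counting error only). Igha (ENSMUSG00000095079, chromosome 12, 113254830 to 113260236), the constant gene of the mucosal antibody IgA, stood at 6.47, 5.32, 5.05, 11.98 and 3.34 CPM and 1422, 126, 782, 756 and 573 CPM (log2 fold change 6.83 ± 0.50, adjusted p = 2.21e-09). Jchain, which joins IgA into dimers, stood at 24.5, 1.61, 1.53, 3.35 and 1.64 CPM and 673, 43.4, 314, 445 and 134 CPM, so 2-week replicate 1 was well above the rest of its group (log2 fold change 5.62 ± 0.76, adjusted p = 6.81e-06). Without that mouse the log2 fold change of Jchain was 7.27, and without 12-week replicate 1 that of Ighg1 was 9.72. Immunoglobulin genes share sequence, and the sources used here did not say how reads that match several of them were counted.

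Most plasma cell genes rose, while none of the B cell markers passed the test. Among plasma cell genes 8 of 10 tested members were called higher and 0 lower, with a median log2 fold change of 1.30. Derl3, of the endoplasmic reticulum machinery that plasma cells rely on, ranged 0.5 to 1.08 CPM and 1.51 to 11.7 CPM (log2 fold change 2.93 ± 0.41, adjusted p = 1.11e-05). Irf4, a transcription factor of plasma cells and activated lymphocytes, ranged 15.99 to 18.7 CPM and 29.98 to 64.05 CPM (log2 fold change 1.32 ± 0.19, adjusted p = 1.11e-05). Fkbp11 ranged 2.26 to 3.05 CPM and 5.7 to 7.79 CPM (log2 fold change 1.27 ± 0.15, adjusted p = 1.27e-06). Among B cell markers 0 of 10 tested members were called higher and 0 lower, with a median log2 fold change of 0.00. Cd79a, a signalling chain of the B cell receptor, stood at 20.8, 33.04, 31.9, 27.2 and 15.9 CPM and 41.6, 44.7, 34.6, 31.1 and 24.4 CPM (log2 fold change 0.45 ± 0.19, adjusted p = 0.0643). Cd22, an inhibitory co-receptor of B cells, had 37.7 to 60.7 CPM and 44.7 to 108 CPM (log2 fold change 0.50 ± 0.20, adjusted p = 0.054). Both lie above the list median of 0.00 and do not stand for the whole list. Summed B cell markers overlapped between groups, at 242.6 to 459.9 CPM at 2 weeks and 260.1 to 428.3 CPM at 12 weeks. Cd79a and Cd22 were called higher in some fits that left out 1 mouse. Cd79a was called without 12-week replicate 5 (adjusted p = 0.0336), 2-week replicate 2 (0.0389) or 2-week replicate 3 (0.0461). Cd22 was called without 12-week replicate 5 (0.0291) or 2-week replicate 3 (0.0379). For lymphoid aggregates and germinal centres 6 of 10 tested members were called higher and 0 lower, with a median log2 fold change of 0.71, and without replicates 1 and 4 the counts were 3 higher and 0 lower, with a median of 0.30. Mef2b, a transcription factor of germinal centre B cells, ranged 0.0997 to 0.332 CPM and 0.424 to 2.03 CPM (log2 fold change 2.40 ± 0.47, adjusted p = 0.000391).

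T cell genes rose modestly. Among T cell markers 12 of 14 tested members were called higher and 0 lower, with a median log2 fold change of 0.68, and without replicates 1 and 4 the counts were 7 higher and 0 lower, with a median of 0.48. Cd4, the co-receptor of helper T cells, stood at 11.4, 10.8, 13.9, 11.4 and 12.8 CPM and 35.9, 19.98, 24.4, 32.9 and 24.6 CPM, with no overlap (log2 fold change 1.19 ± 0.18, adjusted p = 2.36e-05). The costimulatory receptor gene Icos ranged 3.23 to 4.07 CPM and 4.9 to 11.7 CPM (log2 fold change 1.28 ± 0.19, adjusted p = 1.47e-05). Among regulatory T cell genes 7 of 8 tested members were called higher and 0 lower, with a median log2 fold change of 1.30, and without replicates 1 and 4 the counts were 4 higher and 0 lower, with a median of 1.16. Their defining transcription factor gene Foxp3 stood at 1, 0.847, 1.3, 1.12 and 1.31 CPM and 2.16, 1.65, 1.83, 2.93 and 2.23 CPM (log2 fold change 0.96 ± 0.28, adjusted p = 0.0105), with an adjusted p of 0.0966 without replicates 1 and 4. Ctla4, an inhibitory receptor, ranged 0.715 to 1.42 CPM and 2.46 to 4.97 CPM (log2 fold change 1.84 ± 0.23, adjusted p = 2.84e-06). Tnfrsf18 ranged 1.41 to 2.04 CPM and 4.88 to 5.7 CPM (log2 fold change 1.55 ± 0.17, adjusted p = 4.8e-07). In the interleukin 17 axis 7 of 7 tested members were called higher and 0 lower, with a median log2 fold change of 0.88, and without replicates 1 and 4 the counts were 4 higher and 0 lower, with a median of 0.75. Il17a had 0 counts in every 2-week library and 165 over the 12-week group, at 2.06, 0.306, 0.122, 1.69 and 0.495 CPM per mouse, at least 48-fold higher when the 2-week group is set to its floor of 3 counts. The homing receptor gene Ccr6 ranged 1.25 to 2.96 CPM and 3.11 to 11.9 CPM (log2 fold change 1.73 ± 0.33, adjusted p = 0.000248). For natural killer and cytotoxic genes 0 of 10 tested members were called higher and 1 lower, with a median log2 fold change of -0.14.

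Most antigen presentation and complement genes rose. Among dendritic cell and MHC class II genes 11 of 12 tested members were called higher and 0 lower, with a median log2 fold change of 1.16, and without replicates 1 and 4 the counts were 10 higher and 0 lower, with a median of 0.89. H2-Aa, an MHC class II chain, stood at 236, 334, 260.4, 251 and 246 CPM and 905, 589.8, 696, 888 and 716 CPM (log2 fold change 1.52 ± 0.13, adjusted p = 3.33e-08). H2-Eb1 ranged 186 to 225 CPM and 478 to 733 CPM (log2 fold change 1.61 ± 0.15, adjusted p = 9.17e-08). Ciita, the coactivator that switches these genes on, ranged 38.4 to 57.9 CPM and 95.2 to 150.5 CPM (log2 fold change 1.25 ± 0.13, adjusted p = 2.97e-07). Flt3, a receptor of dendritic cells and their precursors, was close in all 2-week mice at 6.94, 6.57, 6.25, 6.76 and 6.88 CPM and stood at 24.9, 15.2, 19.4, 26.1 and 19.1 CPM at 12 weeks (log2 fold change 1.65 ± 0.13, adjusted p = 7.81e-09). Among complement genes 9 of 12 tested members were called higher and 1 lower, with a median log2 fold change of 1.66. The C1q chains, made mainly by macrophages, rose together: C1qa ranged 22.5 to 45.6 CPM and 122 to 212 CPM (log2 fold change 2.30 ± 0.22, adjusted p = 9.17e-08), C1qb rose by 2.22 ± 0.19 and C1qc by 2.42 ± 0.24 on the log2 scale. C3, the central complement component, stood at 689.9, 872, 676, 744 and 917 CPM and 2707, 2139, 1709, 3167 and 2663 CPM (log2 fold change 1.67 ± 0.16, adjusted p = 9.17e-08). Among genes of leukotriene and prostaglandin synthesis 8 of 13 tested members were called higher and 1 lower, with a median log2 fold change of 0.47, and without replicates 1 and 4 the counts were 5 higher and 1 lower, with a median of 0.35. Alox15, a lipoxygenase, ranged 2.3 to 21.96 CPM and 31.4 to 88.9 CPM (log2 fold change 2.67 ± 0.47, adjusted p = 0.000123). Without 2-week replicate 4 its log2 fold change was 3.34. Alox5ap, which encodes the helper protein of leukotriene synthesis, ranged 19.9 to 29.8 CPM and 41.5 to 60.6 CPM (log2 fold change 1.07 ± 0.13, adjusted p = 1.39e-06).

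Matrix genes rose in part, and fewer elastic fibre genes were called without replicates 1 and 4. For fibrillar collagens and cross-linking enzymes 13 of 22 tested members were called higher and 2 lower, with a median log2 fold change of 0.47, and without those mice the counts were 11 higher and 2 lower, with a median of 0.43. Col3a1 (ENSMUSG00000026043, chromosome 1, 45311538 to 45349706), the type III collagen chain, stood at 594, 1048, 596, 630.1 and 731 CPM at 2 weeks and 2383, 1595, 1690, 2501 and 1855 CPM at 12 weeks (log2 fold change 1.48 ± 0.16, adjusted p = 3.69e-07). Col1a1, the main type I collagen chain, stood at 113, 272, 137, 194 and 185 CPM and 717, 299, 345, 586 and 354 CPM (log2 fold change 1.35 ± 0.22, adjusted p = 4.84e-05). Neither overlapped, and in both 2-week replicate 2 was the highest of its group. Col5a2 ranged 95.5 to 161 CPM and 199.8 to 356 CPM (log2 fold change 1.21 ± 0.16, adjusted p = 5.46e-06). For elastic fibres 7 of 16 tested members were called higher and 1 lower, with a median log2 fold change of 0.36, and without replicates 1 and 4 the counts were 2 higher and 1 lower, with a median of 0.18. Eln, which encodes elastin, stood at 174, 192, 151, 161 and 187 CPM and 1873, 165, 239, 793 and 364 CPM, high in replicates 1 and 4 and with replicate 2 inside the 2-week range (log2 fold change 1.99 ± 0.43, adjusted p = 0.000945). Its log2 fold change was 1.14 without 12-week replicate 1, and 0.53 (adjusted p = 0.146) without replicates 1 and 4. Ltbp2, which binds elastic microfibrils, was also highest in replicates 1 and 4, at 573, 116, 149.7, 462 and 145 CPM against 61.2 to 114 CPM at 2 weeks (log2 fold change 1.69 ± 0.36, adjusted p = 0.000761). Its adjusted p was 0.0980 without those mice. Emilin1, an elastic fibre glycoprotein, ranged 51.4 to 104 CPM and 112 to 146 CPM (log2 fold change 0.96 ± 0.18, adjusted p = 0.000307). Efemp1, the 1 member that fell, ranged 143 to 226 CPM and 72.7 to 143 CPM (log2 fold change -0.79 ± 0.16, adjusted p = 0.000522).

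Other matrix groups gave a mixed picture. Among basement membrane genes 8 of 20 tested members were called higher and 0 lower, with a median log2 fold change of 0.21, and without replicates 1 and 4 the counts were 2 higher and 0 lower, with a median of 0.11. Without 12-week replicate 4 alone, 5 of these members were called higher. Among matricellular genes 10 of 15 tested members were called higher and 2 lower, with a median log2 fold change of 0.60, and without replicates 1 and 4 the counts were 6 higher and 1 lower, with a median of 0.34. Fibronectin (Fn1) stood at 532, 633, 478, 833 and 634 CPM and 2098, 891, 852, 2490 and 1183 CPM (log2 fold change 1.27 ± 0.24, adjusted p = 0.000247). Tenascin C (Tnc), a matrix protein of injury, ranged 21.8 to 42.04 CPM and 50.5 to 177 CPM (log2 fold change 1.74 ± 0.29, adjusted p = 6e-05). Thbs4 ranged 0.233 to 0.787 CPM and 0.847 to 3.2 CPM (log2 fold change 2.10 ± 0.42, adjusted p = 0.000468). Periostin (Postn), a matrix protein that interleukin 13 is known to induce, ranged 445 to 531 CPM and 338 to 465 CPM (log2 fold change -0.29 ± 0.11, adjusted p = 0.0444). Its call was lost when any of 5 single mice was left out (12-week replicates 1 and 4, 2-week replicates 1, 3 and 5), with adjusted p from 0.0586 to 0.0994. Among matrix proteases and their inhibitors 11 of 20 tested members were called higher and 1 lower, with a median log2 fold change of 0.62, and without replicates 1 and 4 the counts were 7 higher and 1 lower, with a median of 0.33. Adam8 ranged 12.6 to 27.4 CPM and 44.5 to 109 CPM (log2 fold change 1.95 ± 0.24, adjusted p = 2.84e-06). The gelatinase gene Mmp2 ranged 87.5 to 142 CPM and 178 to 347 CPM (log2 fold change 1.26 ± 0.18, adjusted p = 9.69e-06). Mmp14 rose by 1.11 ± 0.19 on the log2 scale.

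In the TGF-beta family, whose ligands drive matrix synthesis, the shares called in each direction lay near those of all tested genes, 22.1% higher and 16.4% lower. In the list 4 of 20 tested members were called higher and 5 lower, with a median log2 fold change of -0.04, and without replicates 1 and 4 the counts were 2 higher and 4 lower, with a median of -0.05. The ligand gene Tgfb1 stood at 31.7, 43.2, 30.02, 39.5 and 31.7 CPM and 101, 49.6, 52.8, 82.8 and 58.5 CPM, with no overlap (log2 fold change 0.97 ± 0.17, adjusted p = 0.000161). Inhba, which encodes an activin subunit, stood at 2.68, 2.67, 4.52, 3.95 and 5.41 CPM and 28.6, 3.72, 6.15, 31.4 and 5.01 CPM, high in replicates 1 and 4 only (log2 fold change 1.96 ± 0.45, adjusted p = 0.00168). Without them its log2 fold change was 0.34 (adjusted p = 0.427). The receptor genes Bmpr2 and Tgfbr3 fell with no overlap between groups: Bmpr2 ranged 1094 to 1891 CPM and 697 to 818 CPM (log2 fold change -0.93 ± 0.13, adjusted p = 1.05e-05). Tgfbr3 ranged 114 to 142 CPM and 68.6 to 97.9 CPM (log2 fold change -0.62 ± 0.14, adjusted p = 0.0013). Among smooth muscle and pericyte markers 0 of 14 tested members were called higher and 1 lower, with a median log2 fold change of 0.04. Acta2, the smooth muscle actin of airway muscle and myofibroblasts, overlapped fully at 202 to 355 CPM and 221 to 409 CPM (log2 fold change -0.02 ± 0.15, adjusted p = 0.929). Among fibroblast markers 1 of 12 tested members were called higher and 3 lower, with a median log2 fold change of -0.10. Pdgfra, a receptor that marks lung fibroblasts, ranged 349 to 498 CPM and 269.6 to 344 CPM (log2 fold change -0.41 ± 0.11, adjusted p = 0.00554).

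**Figure D3:**
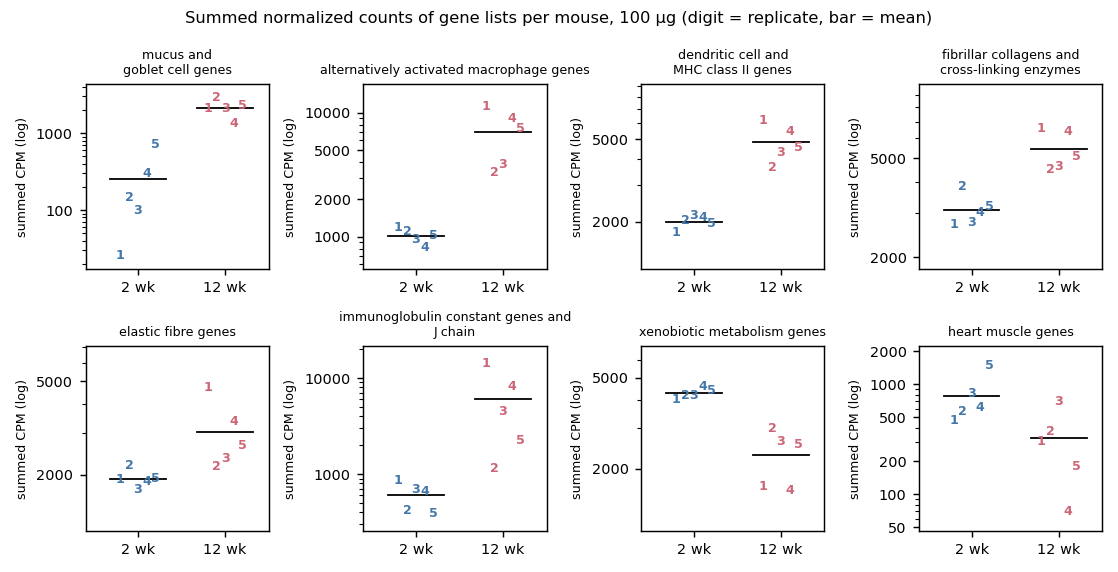
Summed normalized counts (CPM, log axis) of 8 gene lists are plotted for each of the 5 mice at 2 weeks and 5 at 12 weeks, each digit being the replicate number and each bar the group mean. Replicates 1 and 4 at 12 weeks are the highest for elastic fibre and immunoglobulin genes and the lowest for xenobiotic metabolism genes, whereas mucus genes are highest in replicate 2; heart muscle genes are lowest in 12-week replicate 4 and highest in 2-week replicate 5.

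Most of the tested club cell and xenobiotic metabolism genes fell. Among club cell markers 0 of 9 tested members were called higher and 6 lower, with a median log2 fold change of -0.93, and without replicates 1 and 4 the counts were 0 higher and 4 lower, with a median of -0.69. Scgb1a1 (ENSMUSG00000024653, chromosome 19, 9083636 to 9087958), the defining secretory protein of club cells, stood at 22510, 20420, 34390, 30440 and 30600 CPM at 2 weeks and 7321, 13930, 10680, 5805 and 11940 CPM at 12 weeks, with no overlap (log2 fold change -1.48 ± 0.26, adjusted p = 0.000105). Cyp2f2, a cytochrome P450 of club cells, stood at 1399, 1774, 1809, 1972 and 1673 CPM and 451, 879, 714, 350.4 and 626 CPM (log2 fold change -1.51 ± 0.19, adjusted p = 3.46e-06). It is also 1 of the xenobiotic metabolism genes, of which 0 of 15 tested members were called higher and 12 lower, with a median log2 fold change of -0.81, and without replicates 1 and 4 the counts were 0 higher and 7 lower, with a median of -0.62. The flavin monooxygenase gene Fmo1 ranged 358 to 433 CPM and 150.5 to 272 CPM (log2 fold change -0.81 ± 0.15, adjusted p = 0.000151). The glutathione transferase gene Gsta3 ranged 87.98 to 139.9 CPM and 23.7 to 76.5 CPM (log2 fold change -1.01 ± 0.24, adjusted p = 0.00202). Within the 12-week group these falls were deepest in replicates 1 and 4, the mice with the highest Ighg1 and Eln levels. Among ciliated cell markers 0 of 10 tested members were called higher and 4 lower, with a median log2 fold change of -0.35, and without replicates 1 and 4 the counts were 0 higher and 2 lower, with a median of -0.10. Ccdc39, an assembly factor of cilia, ranged 33.4 to 41.6 CPM and 15.6 to 31 CPM (log2 fold change -0.71 ± 0.16, adjusted p = 0.00148).

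The alveolar lining divided by cell type. Among type 2 cell markers, the cells that secrete surfactant, 5 of 10 tested members were called higher and 0 lower, with a median log2 fold change of 0.27. Sftpd, a collectin of surfactant, stood at 471, 606, 359, 374 and 406 CPM and 1531, 999.8, 1145, 1972 and 1641 CPM (log2 fold change 1.72 ± 0.23, adjusted p = 7.12e-06). Sftpa1 rose by 0.63 ± 0.12 on the log2 scale. Among type 1 cell markers, the flat cells of gas exchange, 0 of 10 tested members were called higher and 5 lower, with a median log2 fold change of -0.27, and without replicates 1 and 4 the counts were 0 higher and 5 lower, with a median of -0.20. Akap5 stood at 1545, 981, 1237, 1179 and 1255 CPM and 375, 819, 646, 427 and 625.3 CPM (log2 fold change -1.10 ± 0.18, adjusted p = 6.8e-05). Rtkn2 ranged 258 to 348 CPM and 129 to 201 CPM (log2 fold change -0.79 ± 0.13, adjusted p = 7.83e-05). The tight junction gene Cldn18 ranged 722 to 1251 CPM and 608 to 702 CPM (log2 fold change -0.71 ± 0.16, adjusted p = 0.0011). Among endothelial markers 1 of 13 tested members were called higher and 4 lower, with a median log2 fold change of -0.13, and without replicates 1 and 4 the counts were 0 higher and 2 lower, with a median of -0.06. Ednrb, the endothelin receptor B, ranged 135 to 186 CPM and 57.4 to 113 CPM (log2 fold change -0.97 ± 0.15, adjusted p = 4.44e-05). Cdh5, the cadherin of endothelial junctions, ranged 886 to 1122 CPM and 712 to 744 CPM (log2 fold change -0.42 ± 0.08, adjusted p = 0.000219).

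**Figure D4:**
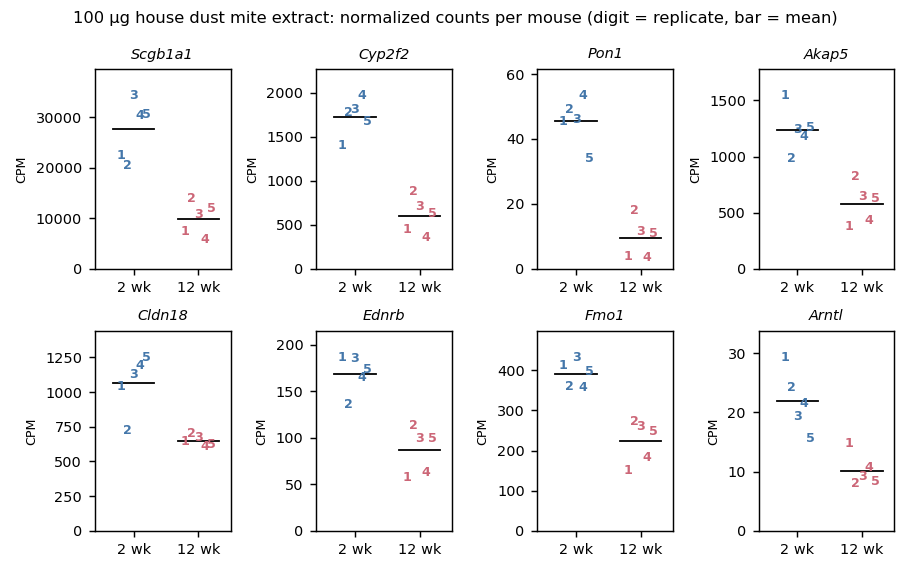
Normalized counts (CPM, linear axis from 0) of 8 genes that fell are plotted for each of the 5 mice at 2 weeks and 5 at 12 weeks, each digit being the replicate number and each bar the group mean. In all 8 every 12-week mouse lies below every 2-week mouse; for Scgb1a1 and Cyp2f2 the lowest 12-week mice are replicates 4 and 1.

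Nearly the whole list of cell cycle genes rose. In the list 16 of 17 tested members were called higher and 0 lower, with a median log2 fold change of 1.19, and without replicates 1 and 4 the counts were 15 higher and 0 lower, with a median of 0.87. Mcm2, a subunit of the replication helicase, ranged 14.8 to 21.4 CPM and 26 to 37.1 CPM (log2 fold change 0.83 ± 0.10, adjusted p = 2.6e-06). The kinase gene Cdk1 stood at 2.62, 3.18, 2.13, 1.96 and 2.75 CPM and 7.35, 5.96, 4.37, 11.96 and 9.14 CPM, with no overlap (log2 fold change 1.61 ± 0.23, adjusted p = 1.32e-05). Rrm2, a subunit of ribonucleotide reductase, rose by 1.25 ± 0.16 and the mitotic kinase gene Aurkb by 1.56 ± 0.22 on the log2 scale. Among unfolded protein response genes, which serve protein folding in the endoplasmic reticulum, 7 of 10 tested members were called higher and 1 lower, with a median log2 fold change of 0.46. Sdf2l1 ranged 3.97 to 7.88 CPM and 14.6 to 28.5 CPM (log2 fold change 1.74 ± 0.22, adjusted p = 2.58e-06). Creld2 ranged 16.7 to 21.6 CPM and 26.5 to 44.3 CPM (log2 fold change 0.81 ± 0.11, adjusted p = 7.44e-06). The chaperone gene Hspa5 rose by 0.49 ± 0.11 on the log2 scale with overlapping groups. Among immediate early and heat shock genes 6 of 11 tested members were called higher and 0 lower, with a median log2 fold change of 0.58. The heat shock gene Hspa1b stood at 2.24, 4.69, 5.75, 9.5 and 6.2 CPM and 4.22, 19.4, 17.2, 26.3 and 25.9 CPM, with 12-week replicate 1 inside the 2-week range (log2 fold change 1.71 ± 0.38, adjusted p = 0.00112). Atf3 ranged 6.91 to 12.8 CPM and 21.6 to 32.1 CPM (log2 fold change 1.22 ± 0.20, adjusted p = 5.79e-05). Junb ranged 46.7 to 112 CPM and 128 to 221 CPM (log2 fold change 1.29 ± 0.31, adjusted p = 0.0023).

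Circadian clock genes moved in both directions. In the list 7 of 17 tested members were called higher and 4 lower, with a median log2 fold change of 0.42. Arntl and Clock encode the activator pair of the clock: Arntl stood at 29.3, 24.2, 19.4, 21.4 and 15.6 CPM and 14.7, 7.93, 9.11, 10.7 and 8.29 CPM (log2 fold change -1.12 ± 0.20, adjusted p = 0.000155). Clock ranged 142 to 199.9 CPM and 93.2 to 108 CPM (log2 fold change -0.75 ± 0.10, adjusted p = 3.92e-06). Neither gene overlapped between groups. The repressor genes Cry1 and Bhlhe40 rose, Cry1 from 7.58 to 9.03 CPM to 11.6 to 17.4 CPM (log2 fold change 0.85 ± 0.12, adjusted p = 1.85e-05) and Bhlhe40 from 54.2 to 82.1 CPM to 138 to 248 CPM (log2 fold change 1.37 ± 0.17, adjusted p = 2.93e-06). These genes cycle over the day, and a difference in the hour of collection cannot be told apart from the length of the model. Among glucocorticoid-responsive genes 3 of 10 tested members were called higher and 2 lower, with a median log2 fold change of 0.13. These shares lie near the 22.1% higher and 16.4% lower of all tested genes. Fkbp5, 1 of the 3 called higher, ranged 12.2 to 17.7 CPM and 22.2 to 34.1 CPM (log2 fold change 0.89 ± 0.17, adjusted p = 0.000248). Among interferon response genes 3 of 12 tested members were called higher and 1 lower, with a median log2 fold change of 0.15. Isg15, an interferon-induced modifier, stood at 3.22, 13.3, 5.66, 4.41 and 4.16 CPM at 12 weeks against 3.44 to 4.35 CPM at 2 weeks, so 12-week replicate 2 stood highest. Without that mouse 1 member of the list was called higher and 5 lower, and without replicates 1 and 4 the counts were 6 higher and 0 lower, with a median of 0.42.

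The 12 largest rises and 12 largest falls hold several genes already described. They were taken among called genes whose groups did not overlap and whose higher group averaged at least 1 CPM. Predicted genes and antigen receptor genes were left out of both, so the rises of Ighe, Ighg1 and Igha given above are not among them. Among the rises, Npy, which encodes neuropeptide Y, had 0 counts in every 2-week library and stood at 12.8, 0.0941, 0.635, 6.29 and 0.138 CPM at 12 weeks, high in replicates 1 and 4, at least 198-fold higher over the group. It was not called by limma-voom (adjusted p = 0.0815) or without replicates 1 and 4 (0.0577). Fbp1, a gluconeogenic enzyme, stood at 0.235, 0.212, 0.2, 0.332 and 0.295 CPM and 14.5, 9.32, 6.37, 43.1 and 44.5 CPM (log2 fold change 6.51 ± 0.54, adjusted p = 1.44e-08). The neutrophil attractant gene Cxcl3 rose by 5.17 ± 0.67, Lemd1 by 5.36 ± 0.71 and the synaptic protein gene Cbln1 by 5.32 ± 0.88 on the log2 scale, all from under 0.2 CPM. Without 2-week replicate 5 those of Cxcl3 and Lemd1 were 5.96 and 6.24. The other rises are Rnase2a, Chil4, Itln1, Clca1, Mmp12, Jchain and Ccl8.

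The falls were smaller than the rises. Sprr1a, a protein of the cornified envelope, stood at 1.94, 1.72, 2.56, 2.69 and 3.74 CPM and 0.407, 0.494, 0.464, 0.591 and 0.523 CPM (log2 fold change -2.34 ± 0.29, adjusted p = 2.74e-06). Pon1, which encodes the esterase paraoxonase 1, stood at 45.3, 49.1, 46.1, 53.4 and 33.9 CPM and 3.72, 18.01, 11.5, 3.52 and 10.8 CPM (log2 fold change -2.25 ± 0.32, adjusted p = 1.33e-05). The secretoglobin gene Scgb1c1 ranged 8.6 to 19.7 CPM and 2.15 to 4.61 CPM (log2 fold change -2.23 ± 0.27, adjusted p = 1.63e-06). Pdk4, which encodes a kinase that limits glucose oxidation, ranged 11.1 to 26.5 CPM and 4.54 to 7.16 CPM (log2 fold change -1.65 ± 0.29, adjusted p = 0.000155). The log2 fold changes of Stfa2l1, Gdpd2, Crb1, Rptn and Cadm2 were -2.11, -1.99, -1.85, -1.74 and -1.64. Tbx20, a transcription factor of heart muscle, ranged 4.53 to 9.93 CPM and 0.242 to 3.47 CPM (log2 fold change -1.93 ± 0.53, adjusted p = 0.00594). Adprhl1, which the heart also expresses, changed by -2.04 ± 0.52, and Mapk10 by -2.07 ± 0.51 on the log2 scale. Heart muscle genes lay lower too: 0 of 9 tested members were called higher and 3 lower, with a median log2 fold change of -1.50. For these genes 0 calls were left without 2-week replicate 5, and 0 without 12-week replicates 1 and 4. In the 2-week group replicate 5 was the highest for each of the 3 genes and for the summed heart genes, and 12-week replicate 4 was the lowest for all. The part of heart tissue in these 3 falls was not tested. Of the mitochondrial genome's protein genes 0 of 8 tested members were called higher and 6 lower, with a median log2 fold change of -1.18, and without replicates 1 and 4 the counts were 0 higher and 7 lower, with a median of -1.28.

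Libraries labelled saline offer the same contrast of models and share no mouse with the 100 µg comparison. They do not give the change in healthy lung: markers of allergic inflammation were high in those labelled saline at 12 weeks, such as Clca1 at 932 to 2598 CPM against 0.966 to 48.8 CPM at 2 weeks, and Retnla at 576 to 1301 CPM against 31.5 to 61.7 CPM, which goes against that label. Whether other 12-week labels, those of the 100 µg mice included, are affected was not tested. Saline-labelled 2-week replicate 4 held 7.2 M counts, with 27.8% ribosomal RNA and 9.8% mitochondrial counts. Without this library, which entered the shared fit, the 100 µg comparison called 8484 genes and the saline-labelled one 10496. With all libraries, 10634 genes (54.1%) were called between the saline-labelled groups, 5609 (28.5%) higher and 5025 (25.6%) lower at 12 weeks. Of the 7568 genes called at 100 µg, 5586 (73.8%) were called in the same direction there, which is 52.5% of the saline-labelled calls, and 83 were called in the opposite direction. Across the genes called in both, the median ratio of the 100 µg change to the saline-labelled change was 0.76 on the log2 scale.

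The difference between both changes was tested directly and was called in 1624 genes (8.26%): 932 (4.74%) higher and 692 (3.52%) lower at 100 µg. In 900 of them both changes had the same sign and the 100 µg change was the smaller, in 22 it was the larger, and in 702 the signs were opposite. With upper-quartile scaling the split was 703 higher and 872 lower. The count was 777 without 12-week replicate 5, 2602 without 12-week replicate 1 and 3664 without 12-week replicates 1 and 4. Without saline-labelled 2-week replicate 4 it was 2242. A gene without a called difference is not shown to have changed alike. The mucus, alternatively activated macrophage, alarmin and eosinophil lists held 0 members with a called difference in either direction. So did other lists, such as club and ciliated cell markers. The median difference was -1.26 for mucus genes, -0.27 for alternatively activated macrophage genes, 0.02 for alarmins and 0.20 for eosinophil genes. For B cell markers it was -1.04. B cell markers held 6 of 10, all lower at 100 µg: in the saline-labelled libraries 8 of 10 were called higher, with a median log2 fold change of 0.97, against 0 of 10 and 0.00 at 100 µg. The difference was -1.10 ± 0.28 (adjusted p = 0.0175) for Cd79a and -1.03 ± 0.29 (adjusted p = 0.0311) for Cd22. Foxp3 rose less at 100 µg than in the saline-labelled libraries, where its log2 fold change was 3.23 ± 0.32, a difference of -2.28 ± 0.42 (adjusted p = 0.00539). The differences were -1.14 ± 0.30 (adjusted p = 0.0237) for Col1a1, -0.85 ± 0.25 (adjusted p = 0.034) for Tgfb1 and -0.68 ± 0.19 (adjusted p = 0.0252) for Ciita, all from rises in both comparisons that were smaller at 100 µg. Over the 30 alternatives run for each gene, the calls for Cd79a and Foxp3 held in all, with adjusted p up to 0.0386 and 0.0159. The call was lost in 9 of 30 for Cd22 (adjusted p up to 0.0650), 10 for Tgfb1 (0.0684), 3 for Ciita (0.0556) and 2 for Col1a1 (0.0506), the last without 12-week replicate 3 or 5.

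Called differences lay in other lists too, of which folding and clock genes are described here as examples. Fibroblast markers held 4 of 12 higher and 0 lower at 100 µg, and regulatory T cell genes 0 higher and 2 of 8 lower. Of 17 clock genes 3 differed higher and 6 lower at 100 µg, with a median difference of -0.17. Of 10 unfolded protein response genes and of 11 immediate early and heat shock genes, 2 each differed higher and 0 lower. Hspa5 changed by -0.24 ± 0.11 in the saline-labelled libraries, a difference of 0.74 ± 0.16 (adjusted p = 0.0077), and Dnajb1, a co-chaperone of the heat shock response, differed by 0.89 ± 0.28 (adjusted p = 0.0488). Cry1 changed by 0.00 ± 0.13 in the saline-labelled libraries and differed by 0.85 ± 0.18 (adjusted p = 0.00713). The fall of Arntl was smaller at 100 µg, by 1.00 ± 0.28 (adjusted p = 0.03), as was that of Pon1, by 1.53 ± 0.45 (adjusted p = 0.036). The rise of Bhlhe40 was smaller, with a difference of -0.79 ± 0.24 (adjusted p = 0.0403). Of these 6 calls, those for Hspa5 and Cry1 held in all 30 alternatives, while Dnajb1 lost its call in 18, Pon1 in 14, Bhlhe40 in 13 and Arntl in 9, with adjusted p up to 0.109, 0.0965, 0.0818 and 0.0749.

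The 5 highest differences among called genes of at least 1 CPM include genes best known from other organs. Fabp1, a fatty acid binding protein of liver and gut, differed by 2.36 ± 0.61 (adjusted p = 0.0202). Fgg, the fibrinogen gamma chain, differed by 2.26 ± 0.68 (adjusted p = 0.0404), and Asgr1, an asialoglycoprotein receptor chain of liver, by 2.23 ± 0.67 (adjusted p = 0.0403). The calls for Fgg and Asgr1 were lost in 16 and 17 of 30 alternatives, with adjusted p up to 0.128 without 12-week replicate 3 and 0.134 without 12-week replicate 2. Without those same mice the differences were 1.52 for Fgg and 1.49 for Asgr1. Cst8, a cystatin, differed by 2.18 ± 0.55 (adjusted p = 0.0173), and Ear1, an eosinophil-associated ribonuclease with near-identical relatives, by 2.13 ± 0.43 (adjusted p = 0.00654). The difference of Cst8 was 1.58 (adjusted p = 0.0493) without 12-week replicate 2, and that of Fabp1 was 2.98 without saline-labelled 12-week replicate 3. The lowest differences, leaving out a ribosomal RNA gene and a pseudogene, were in the epithelial chemokine gene Ccl28 (-3.70 ± 0.71, adjusted p = 0.00596), Ksr2 (-3.02 ± 0.76, adjusted p = 0.0175) and Mucl1 (-2.91 ± 0.79, adjusted p = 0.0255). The call for Fabp1 was lost without 12-week replicate 5 (adjusted p = 0.0504), and that for Mucl1 without that mouse (0.0504), without 2-week replicate 5 (0.101, with a difference of -2.11) or in the fit of the compared groups only (0.0510). The log2 fold change of Ccl28 was -1.39 ± 0.50 (adjusted p = 0.0302) at 100 µg, a call lost without any one of 12-week replicates 2, 4 and 5 or 2-week replicates 3 and 5, and 2.31 ± 0.51 in the saline-labelled libraries. Ear1 overlapped at 100 µg, with 7.24 to 22.3 CPM and 8.71 to 16.9 CPM. The positive differences of Fabp1, Fgg, Asgr1 and Cst8 are not rises at 100 µg. There the log2 fold changes were -1.11 (adjusted p = 0.0349), -0.37 (0.529), -1.85 (0.00142) and -1.61 (0.00135) in that order. Ksr2 and Mucl1 rose at 100 µg, by 1.39 (adjusted p = 0.0285) and 1.72 (0.0128). These calls at 100 µg were lost in 8 of 21 alternatives for Fabp1, 8 for Ksr2 and 5 for Mucl1. Without 12-week replicates 1 and 4 the log2 fold changes were -0.67 (adjusted p = 0.226), 0.05 (0.946) and 0.57 (0.452) in that order.

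**Figure D5:**
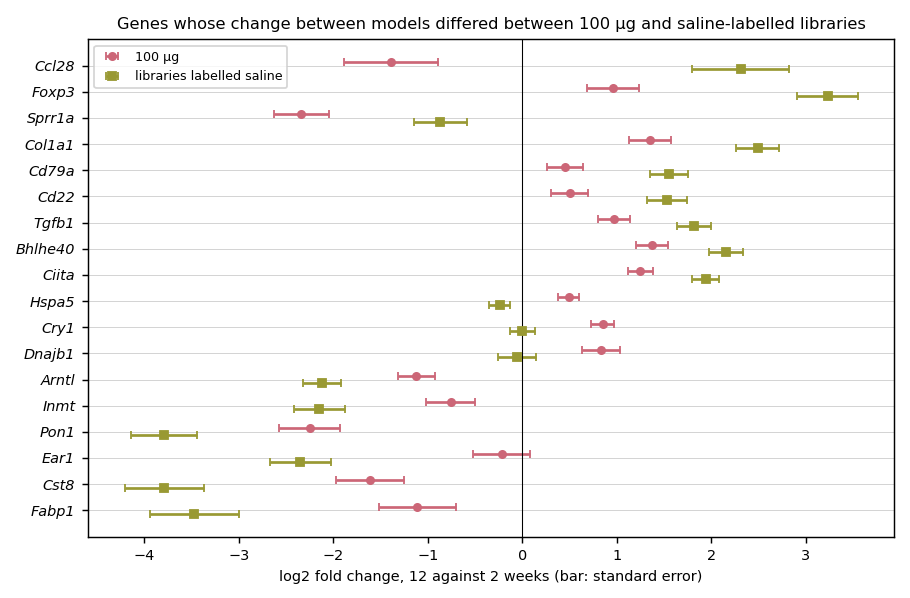
Log2 fold changes of 12 against 2 weeks (bars, standard error) are plotted for 18 genes with a called difference, at 100 µg (circles) and in libraries labelled saline (squares). Foxp3 and Col1a1 rise less at 100 µg, Hspa5, Cry1 and Dnajb1 rise at 100 µg and lie near or below 0 in the saline-labelled libraries, and Ccl28 moves in opposite directions.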

How the data were processed

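RNA of whole lung was sequenced in 25 libraries of 5 groups, 5 mice each, of which 10 were compared here. The authors deposited a table of raw counts for 55421 genes; STAR 2.5.3a and the build GRCm38 are named per the submitters' processing notes. Which program counted reads, whether it used strand and from which annotation is not given in the sources used here. Overlapping genes, antisense genes and near-identical copies are therefore uncertain. Columns were matched to samples through the labels.

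All 25 libraries entered 1 fit in R 4.3.3 with edgeR 4.0.16: filterByExpr kept 19654 genes, libraries were scaled by TMM, and contrasts were tested by the quasi-likelihood F-test at an adjusted p under 0.05 over all genes tested. CPM values are counts per 1000000 of the TMM-scaled library. A value ± SE is a log2 fold change of that fit, with the standard error worked back from its F statistic. Alternatives used limma 3.58.1 and DESeq2 1.42.0, other scalings and filters, and fits without single libraries. Floors of 3 counts over a group and 95% intervals cover counting error only. The edgeR fit was also run on simulated counts in which few genes changed, in equal numbers up and down. That setting does not check the scaling where as many genes change as here.

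The comparison and the gene lists were chosen with earlier results of these data known, and no list was given a test. Named genes are the 12 largest rises and 12 largest falls among called genes, other than predicted and antigen receptor genes, whose groups did not overlap and whose higher group averaged at least 1 CPM, a panel of marker genes, up to 4 members of each list with the smallest p, and the 5 largest differences in each direction. Within the 5 largest negative differences, a ribosomal RNA gene and a pseudogene were left out. Some genes that the rule names are not reported here.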

Additional observations from a re-analysis of the deposited data

Results flagged for a closer look

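In 292 groups of 5 mice (the 2-week and 12-week mice for each gene named, for the library total and for the mitochondrial share), 20 held a mouse far from the other 4 by Dixon's test, where chance flags about 1 in 20 groups. At 2 weeks replicate 5 was far above its group for Clca1 (123 CPM), Fcgbp (13.2 CPM), Agr2 (3.77 CPM), Chil4 (1.90 CPM), Mucl1 (0.918 CPM) and Il13 (0.131 CPM), and for Adprhl1 (7.21 CPM). Replicate 2 of the same group was far above it for H2-Aa (334 CPM), Col5a2 (160.7 CPM), Mmp2 (142 CPM), Junb (112 CPM), Emilin1 (104 CPM), Mmp14 (65.5 CPM) and C1qc (26.9 CPM). Replicate 1 was far above for Jchain (24.5 CPM) and far below for Atf3 (6.91 CPM), replicate 4 was far above for Gsta3 (139.9 CPM), and replicate 3 held the 1 count of Ighe (0.0333 CPM). At 12 weeks replicate 2 was far above for Muc5ac (112.5 CPM) and Isg15 (13.3 CPM).

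The 12-week against 2-week change differed between 100 µg and the saline-labelled libraries, by the test of the difference itself, for 25 of the genes named. The log2 difference, 100 µg minus saline-labelled, was negative for Ccl28 (-3.70), Ksr2 (-3.02), Mucl1 (-2.91), Foxp3 (-2.28), Sprr1a (-1.47), Col1a1 (-1.14), Cd79a (-1.10), Adam8 (-1.10), Cd22 (-1.03), Tgfb1 (-0.85), Bhlhe40 (-0.79) and Ciita (-0.68). It was positive for Fabp1 (2.36), Fgg (2.26), Asgr1 (2.23), Cst8 (2.18), Ear1 (2.13), Pon1 (1.53), Inmt (1.39), Arntl (1.00), Dnajb1 (0.89), Cry1 (0.85), Efemp1 (0.83), Hspa5 (0.74) and Pdgfra (0.61). Over 30 alternatives the call was lost in 18 for Adam8 (adjusted p up to 0.0934), 6 for Efemp1 (0.0649) and 5 for Sprr1a (0.0647). The saline label at 12 weeks is in doubt, so these differences do not compare treated with untreated mice.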

How the results depend on the processing

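Of 135 named genes called between 12 and 2 weeks at 100 µg, 119 were called in the same direction under every alternative that tested them. The other 16 lost the call under at least 1. Some genes with low counts were not tested in all 21 alternatives: Il13, Mcpt1, Mcpt2 and Cbln1 were tested in 19, and Il17a and Npy in 20. Of 25 named differences of changes, 10 kept the call under every alternative and 15 lost it under at least 1. No named result turned its direction past a threshold. The 100 µg comparison called 7568 genes, and 4993 (2795 higher, 2198 lower) without 12-week replicates 1 and 4, an alternative chosen after seeing the data. Leaving out single mice gave 6175 (without 2-week replicate 3) to 8498 (without 2-week replicate 2). The saline-labelled comparison gave 9646 to 10532 calls in such fits. The difference of changes called 1624 genes, 2444 by the DESeq2 Wald test, 978 in a fit of the compared groups only, 919 with no filter on low counts and 3664 without 12-week replicates 1 and 4; leaving out single mice gave 777 to 2602. The cause was not tested. With upper-quartile scaling the 100 µg split was 3628 higher and 4271 lower, and that of the difference 703 and 872.

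Replicate numbers did not pair the mice: deviations of same-numbered mice from their group means correlated across genes at -0.0, -0.01, 0.05, 0.07 and 0.01, and not every mouse correlated best with its own number. With the replicate number as a block, 7123 genes were called at 100 µg, 10278 in the saline-labelled libraries and 1255 for the difference.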
